A study of Mus musculus with 12 samples.

Results

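The peaks described here are those of ZBTB43, a zinc finger protein, at 53 imprinted genes of the mouse. All 53 genes were found in the GENCODE M21 annotation of mm10, and 6 of them are annotated as non-coding. A peak was counted for a gene when it overlapped by at least 1 bp the span of the gene's transcripts extended by 10 kb on both sides. The joined windows covered 4665 kb in 41 stretches. They held 376 of the 175775 peaks of the SssI list, which is 0.214%, and 29 of the 14694 peaks of the TKO list, which is 0.197%.

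In affinity-seq, a purified protein is incubated with fragmented genomic DNA and the DNA it retains is sequenced. Full-length ZBTB43 fused to maltose-binding protein (MBP) was used, and MBP alone served as the control. The SssI DNA came from lung of wild-type C57BL/6N adult male mice, 2 months old, and its CpG sites were methylated with the bacterial enzyme M.SssI after fragmentation. The TKO DNA came from a male embryonic stem cell line of genotype Dnmt1-/-Dnmt3a-/-Dnmt3b-/-, which lacks DNA methyltransferases. Each of the 4 conditions, 2 proteins on 2 DNAs, had 2 libraries, and these 8 of the 12 libraries of the experiment lie behind the lists. The 4 sperm libraries were not analysed here. The authors pooled the duplicates before peak calling, so each DNA has 1 list and no spread between replicates. For this reason no group was tested against another, and intervals cover counting error only. Without read counts, the depth behind each peak is unknown. Cell type and methylation changed together from one DNA to the other and cannot be told apart. Neither list separates the parental alleles.

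Imprinted genes are expressed from the allele of 1 parent. They lie mostly in clusters, and each cluster is governed by a control region whose CpGs are methylated in the germ line of the mother or of the father, called a differentially methylated region (DMR). Maternally methylated DMRs usually coincide with a promoter, and the best known paternally methylated DMRs lie between genes. The study asked how ZBTB43 relates to Z-DNA, the left-handed helix that alternating purines and pyrimidines, such as (CA)n repeats, can adopt. Runs of strictly alternating purines and pyrimidines, here called alternating tracts, were therefore located in GRCm38 (mm10), leaving out those of only A and T.

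The score of a peak is 10 times the −log10 q-value of the authors' peak caller and was used only within its own list. The highest TKO score at an imprinted gene was 2804, rank 117 of the TKO list. This peak lay past the 3′ end of Airn, the non-coding RNA that silences Igf2r. The longest tract of the TKO peak in an exon of the non-coding RNA Meg3 had 8 CpGs in 122 bp. This tract and 4 more are shown because they differ in how many CpGs the repeat carries and where. The sequences are of GRCm38, plus strand, 5′ to 3′, with CpG sites in capitals. They lie at chr12:109565101-109565222, chr12:110290194-110290274, chr6:4736064-4736111, chr7:6692901-6692954 and chr2:174317456-174317515.
Meg3 tract: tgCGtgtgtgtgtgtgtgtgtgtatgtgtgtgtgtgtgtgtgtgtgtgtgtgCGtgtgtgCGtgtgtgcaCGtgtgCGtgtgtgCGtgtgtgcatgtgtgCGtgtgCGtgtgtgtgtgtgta
Dio3 tract: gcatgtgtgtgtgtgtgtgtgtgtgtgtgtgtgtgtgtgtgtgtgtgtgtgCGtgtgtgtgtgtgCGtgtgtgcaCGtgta
Sgce tract: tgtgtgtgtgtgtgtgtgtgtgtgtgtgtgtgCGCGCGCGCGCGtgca
Zim1 tract: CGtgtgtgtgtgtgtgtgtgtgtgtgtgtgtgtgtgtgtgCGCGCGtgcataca
Gnas tract: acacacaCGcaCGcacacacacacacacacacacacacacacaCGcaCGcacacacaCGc

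All of these stretches are made mainly of TG or CA steps. In the tracts of Meg3, Dio3, Sgce, Zim1 and Gnas the CpG sites lie within the alternating run.

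Of the 53 genes, 52 had at least 1 SssI peak. Among 21840 other protein-coding genes, none of whose windows touched those of the imprinted genes, 83.1% had one. Long windows hold more peaks, so each gene was also set against the protein-coding genes with a window length within 20% of its own, between 229 and 7493 genes. The shares of these genes with an SssI peak summed to 46.7 over the 53 imprinted genes. A TKO peak was found at 19 of the 53 genes, against 24.7% of other protein-coding genes, and the shares at similar length summed to 17.7. Nnat, which encodes a small membrane protein of the endoplasmic reticulum, was the only gene without a peak in the SssI list. Its window was 22.4 kb long, and the lower quartile of the 5791 genes of similar length was also 0 SssI peaks per 100 kb.

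Over the joined windows the SssI list had 8.06 peaks per 100 kb (exact Poisson 95% interval 7.27 to 8.92). The windows of the other protein-coding genes had 7.23 peaks per 100 kb (7.18 to 7.27). For the TKO list the densities were 0.622 (0.416 to 0.893) at imprinted genes and 0.624 (0.610 to 0.638) at the others. Without Usp29, the gene with the most peaks, the SssI density was 7.38, and without Usp29 and Sfmbt2 it was 6.98. With all 53 genes the interval lay just above the density of other genes, and without Usp29 and Sfmbt2 the density lay below it.

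The density of SssI peaks was above the median of genes of similar length at 30 of the 53 genes. The same holds for 50.2% of the other protein-coding genes, each set against its own length class. The density passed the upper quartile at 18 genes and lay under the lower quartile at 7. These counts cannot be set against each other, since genes with short windows, such as H19 and Cdkn1c, had a lower quartile of 0. No gene can lie under a quartile of 0. The shares of other genes beyond either quartile are not given here. The median percentile of the 53 genes within their length classes was 54.3. For the TKO list the median at similar length was 0 for 43 of the 53 genes, so that lying above it, as 17 genes and 22.8% of the other genes did, mostly restates having a TKO peak. Neighbouring genes are not independent, since 16 SssI peaks and 1 TKO peak lay in the windows of 2 listed genes.

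**Figure D1:**
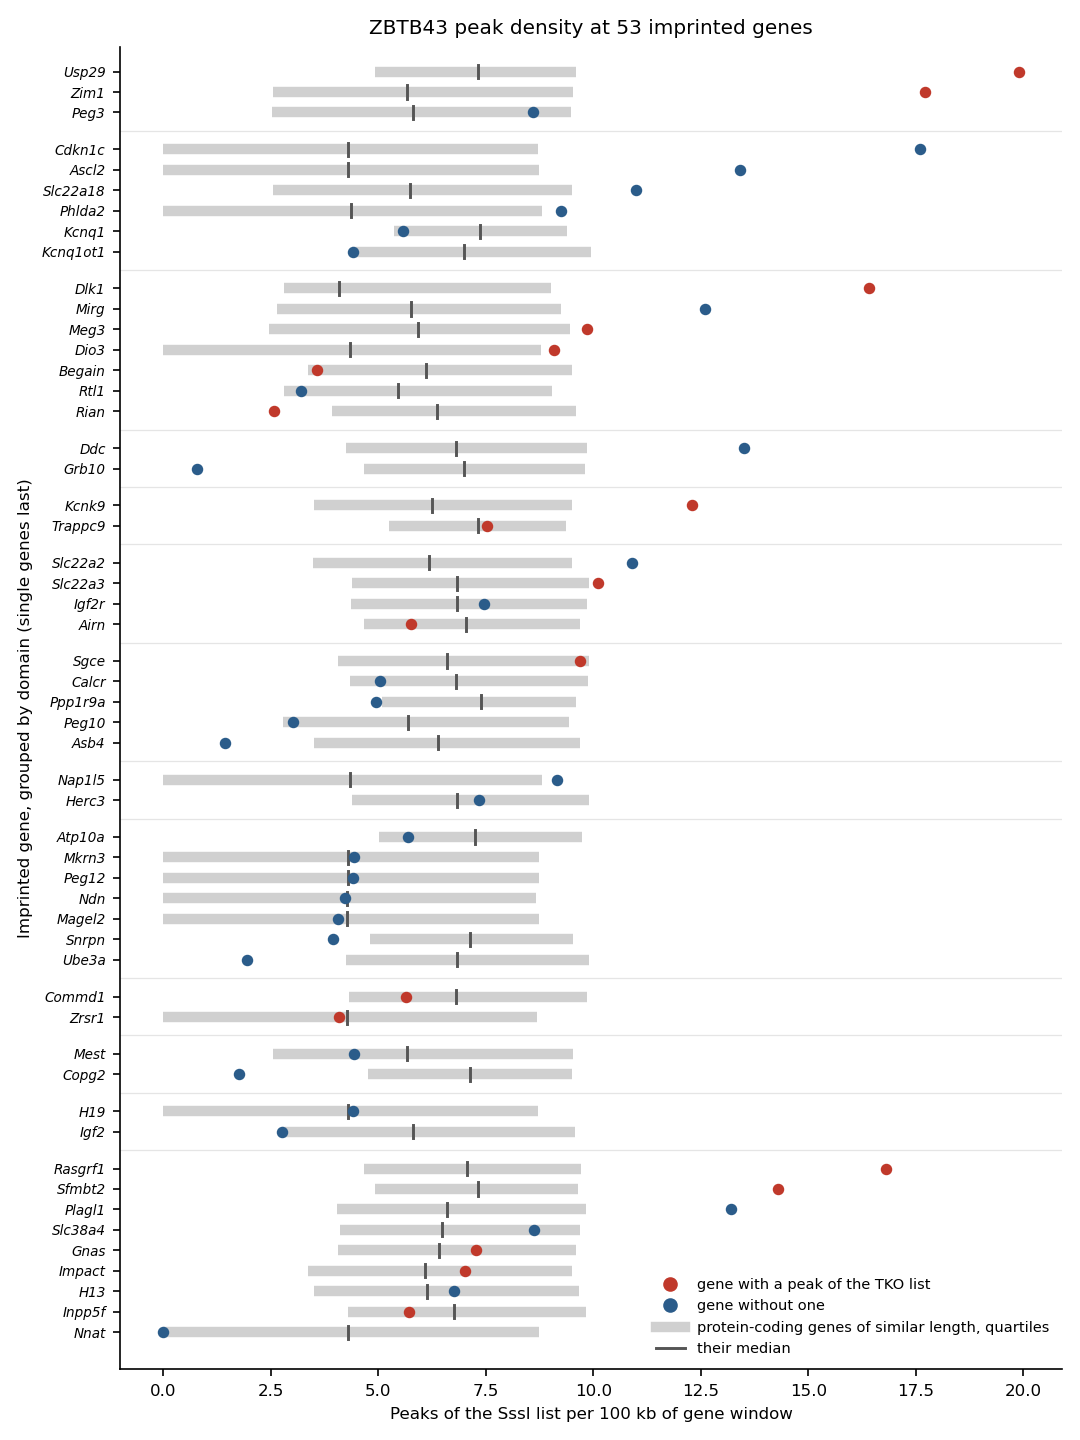
SssI peaks per 100 kb of window for each of the 53 imprinted genes, grouped by domain, with the quartiles (grey bars) and median (dark ticks) of protein-coding genes of similar length; red points are genes with a TKO peak. Usp29 lies highest at 19.9, and the genes of the Snrpn domain all lie near or under their medians.

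The Peg3 domain on chromosome 7 had the highest density. Usp29, a paternally expressed gene for a ubiquitin-specific protease (chr7:6730578-6967219), had 51 SssI peaks in a window of 257 kb, or 19.9 per 100 kb. Genes of similar length had a median of 7.31 and quartiles of 4.93 and 9.59, and the percentile of Usp29 was 99.2 among 498 genes. Of its 51 peaks, 48 touched the gene itself. Zim1, a zinc finger gene of the same domain, had 8 peaks in 45.2 kb, or 17.7 per 100 kb. Peg3, the zinc finger gene whose promoter holds the DMR of the domain, had 4 peaks, or 8.59 per 100 kb. The domain as a whole had 60 SssI peaks, 19 per 100 kb (14.5 to 24.4), and 8 TKO peaks, 2.53 per 100 kb (1.09 to 4.99). None of the TKO peaks lay in the window of Peg3.

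At the Dlk1 domain on chromosome 12 the SssI density was near that of other genes while the TKO density was above it. The 7 genes had 22 SssI peaks, 7.61 per 100 kb (4.77 to 11.5). They had 6 TKO peaks, 2.08 per 100 kb (0.762 to 4.52), so that 27.3% of the SssI peaks (Wilson 95% interval 13.2 to 48.2) had a TKO partner. Dlk1, a Notch-like transmembrane protein, had 5 SssI peaks in 30.5 kb, or 16.4 per 100 kb, and only 1 of them touched the gene. Mirg, a host RNA of microRNAs, had 5 peaks at 12.6 per 100 kb, and Meg3 had 5 peaks at 9.86 per 100 kb. Rian, a host RNA of small nucleolar RNAs, had 2 peaks at 2.57 per 100 kb, percentile 12.8. The TKO peaks lay in the windows of Begain, Dlk1, Meg3, Rian and Dio3, which had 2.

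At the Kcnq1 domain the SssI density was again near that of other genes. Its 6 genes had 30 SssI peaks, 7.01 per 100 kb (4.73 to 10.0), and no TKO peak, which allows up to 0.862 per 100 kb and so includes the density of other genes. Cdkn1c, a cyclin-dependent kinase inhibitor that restrains growth, had 4 SssI peaks in 22.7 kb, or 17.6 per 100 kb, all of them outside the gene. Ascl2, a transcription factor of the placenta, had 3 peaks at 13.4 per 100 kb. Kcnq1, a potassium channel subunit, had 19 peaks in 341 kb, or 5.58 per 100 kb, percentile 28. Kcnq1ot1, the non-coding RNA that starts at the DMR of the domain, had 5 peaks at 4.42 per 100 kb. The highest score among these peaks was 570, and the median was 103.

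The Snrpn domain had few peaks. Its 7 genes had 24 SssI peaks, 4.23 per 100 kb (2.71 to 6.29), and no TKO peak, which allows up to 0.650 per 100 kb. Snrpn, which encodes a spliceosome protein, had 7 peaks in 178 kb, or 3.94 per 100 kb, percentile 15.9. Ube3a, a ubiquitin ligase, had 2 peaks at 1.95 per 100 kb, percentile 5.55. Atp10a, a phospholipid transporter, had 11 peaks at 5.69 per 100 kb, percentile 33.0. The GC content of the domain was 38.7%, against 43% over the other protein-coding genes, and the part of GC content in this result was not tested.

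The largest contrast between neighbours was at Grb10 and Ddc on chromosome 11. Grb10 (chr11:11930508-12038683), an adaptor that restrains insulin signalling, had 1 SssI peak in 128 kb, or 0.780 per 100 kb. Its percentile was 1.25 among 1359 genes of similar length. Ddc, which encodes dopa decarboxylase and adjoins it, had 14 peaks in 104 kb, or 13.5 per 100 kb, percentile 91.0. Neither gene had a TKO peak. The only Grb10 peak had a score of 145 and lay in an intron, 11.3 kb from the outermost start. Its longest tract, at chr11:12027432-12027472, is a plain CA repeat with no CpG.
Grb10 tract: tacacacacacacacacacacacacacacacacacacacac

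In the Igf2r domain the SssI density was 8.90 per 100 kb (6.13 to 12.5) from 33 peaks. Igf2r, the receptor that clears insulin-like growth factor, and Airn had 8 SssI peaks each, at 7.46 and 5.76 per 100 kb. Slc22a2 and Slc22a3, transporters of organic cations, had 7 and 11, at 10.9 and 10.1 per 100 kb. In the Trappc9 domain, Trappc9, a subunit of a vesicle trafficking complex and the longest gene of the 53, had 37 SssI peaks at 7.53 per 100 kb, percentile 54.6. Kcnk9, a potassium channel expressed from the maternal allele, had 8 at 12.3 per 100 kb, percentile 87.5. Ppp1r9a, an actin-binding scaffold in the Peg10 domain, had 14 SssI peaks at 4.95 per 100 kb, and that domain had 5.2 per 100 kb (3.48 to 7.47). Mest and Copg2 had 5 peaks between them, 2.59 per 100 kb (0.840 to 6.04). H19 and Igf2 had 1 SssI peak each and no TKO peak.

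Among the genes outside these clusters, Rasgrf1, an exchange factor for Ras, had 23 SssI peaks in 137 kb, or 16.8 per 100 kb, percentile 98.1. Sfmbt2, a Polycomb-group protein, had 35 in 245 kb, or 14.3 per 100 kb, percentile 94.4. Plagl1, a zinc finger transcription factor, had 12 at 13.2 per 100 kb, percentile 90.3. Gnas, which encodes the stimulatory G protein alpha subunit, had 6 at 7.28 per 100 kb, percentile 57.1. The first 3 were thus dense in peaks, and Gnas was near the middle of its length class.

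Among the genes not yet described, Slc22a18 had 5 SssI peaks at 11.0 per 100 kb, Sgce 9 at 9.69, Phlda2 2 at 9.26, Nap1l5 2 at 9.16, Dio3 2 at 9.08 and Slc38a4 7 at 8.63. Herc3, Impact, H13, Inpp5f, Commd1 and Calcr had between 4 and 8 peaks at 5.05 to 7.34 per 100 kb. A single SssI peak was found at each of Ndn, Magel2, Mkrn3, Peg12, Zrsr1, Rtl1, Peg10 and Asb4, and Begain had 2. Asb4, with 1 peak in 69.6 kb, and Copg2, with 3 in 169 kb, stood low among genes of similar length, at percentiles 7.15 and 2.90.

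When the genes were sorted by the allele expressed, the 24 paternally expressed genes had 181 SssI peaks, 10.3 per 100 kb (8.85 to 11.9). The 21 maternally expressed genes had 153, or 6.56 per 100 kb (5.57 to 7.69). The order rested on few genes: without Usp29 the paternally expressed genes had 8.68 per 100 kb, and without Usp29 and Sfmbt2 they had 7.60. The median over genes ran the other way, at 5.11 per 100 kb for paternally and 7.53 for maternally expressed genes. The TKO densities were 0.797 (0.436 to 1.34) and 0.558 (0.297 to 0.954). The remaining 8 genes, not sorted by allele here, had 6.21 SssI peaks per 100 kb (4.64 to 8.15). A further 20 imprinted genes outside the list had 76 SssI peaks, 7.90 per 100 kb (6.22 to 9.89), at 16 of the genes, and 4 TKO peaks at 3 genes. The windows of 7 of these genes touched listed windows, and 7 of the 76 SssI peaks are also among the 376. For 8 genes of factors that keep imprints, such as Zfp57, Trim28 and Dnmt1, the density was 4.82 (3.06 to 7.24), and the only TKO peak was at Dnmt1.

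Genes rich in peaks were often rich in alternating tracts, with exceptions. Alternating tracts of at least 24 bp numbered 1009 in the windows, 21.6 per 100 kb, against 17.7 per 100 kb at other protein-coding genes. Of the 1009 tracts, 174 lay at Sfmbt2 and 126 at Usp29, and the tract density without these genes is not given here. Tract density was above that of genes of similar length at 25 of the 53 genes, against 50.5% of other genes. Usp29 had 126 tracts, 49.1 per 100 kb and percentile 99.6, and Zim1 had 46.5 per 100 kb. Grb10 had 5 tracts, 3.90 per 100 kb and percentile 0.589. Sfmbt2 had the most tracts, 174 or 71.1 per 100 kb, but 24.1% of them lay under an SssI peak, against 43.7% at Usp29, 65.8% at Rasgrf1 and 79.2% at Plagl1. The median length of the tracts was 28 bp at Sfmbt2, 36.5 bp at Usp29, 46.5 bp at Rasgrf1 and 35 bp at Plagl1. The part of tract length in these shares was not tested. At the Snrpn domain 30.1% of 83 tracts (21.3 to 40.7) lay under an SssI peak.

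**Figure D2:**
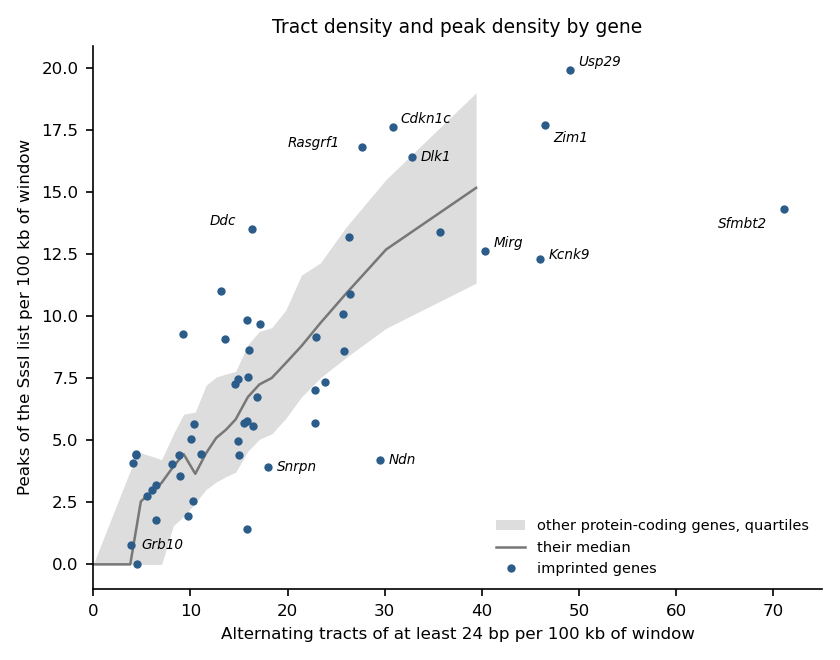
Alternating tracts of at least 24 bp per 100 kb (x axis) and SssI peaks per 100 kb (y axis) for each imprinted gene (points), over the quartiles (grey) and median (line) of other protein-coding genes in 20 bins of tract density. Usp29 and Zim1 lie high on both axes, Sfmbt2 has the most tracts at 14.3 peaks per 100 kb, and Grb10 is low on both.

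The share of tracts under an SssI peak rose with their length, and that under a TKO peak did not rise steadily. Of the 1009 tracts 43.3% (40.3 to 46.4) lay under an SssI peak and 5.75% (4.47 to 7.36) under a TKO peak, against 48.7% and 6.72% at other protein-coding genes. Sfmbt2 alone held 174 of the tracts, with 24.1% under an SssI peak, and the shares without it are not given here. Several tracts can lie under 1 peak, while the intervals count each tract on its own and are therefore too narrow. Of the 58 tracts under TKO peaks, 15 were at Kcnk9, which had 2 TKO peaks. Under SssI peaks lay 28.7% (24.9 to 32.9) of the tracts of 24 to 35 bp, 50.5% (44.9 to 56.1) of those of 36 to 49 bp and 65.9% (59.4 to 71.9) of those of 50 bp or more. Under TKO peaks the shares in the same order were 5.95% (4.18 to 8.42), 3.93% (2.26 to 6.75) and 7.83% (4.95 to 12.2), and 7.18%, 5.22% and 7.92% at other genes. Among the longest class, 82.7% (72.6 to 89.6) of the 75 tracts with a CpG and 57.0% (48.8 to 64.9) of the 142 without one were under an SssI peak. In the class of 36 to 49 bp these shares were 50.0% (40.1 to 59.9) and 50.7% (44.0 to 57.4). Other protein-coding genes showed the same shape, with 78.4% and 55.6% in the longest class. For TKO peaks the shares in the longest class were 12% (6.44 to 21.3) with a CpG and 5.63% (2.88 to 10.7) without, and these intervals overlapped. At other protein-coding genes the same shares were 12.6% (12.2 to 13.1) and 5.31% (5.08 to 5.54), whose intervals did not overlap.

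**Figure D3:**
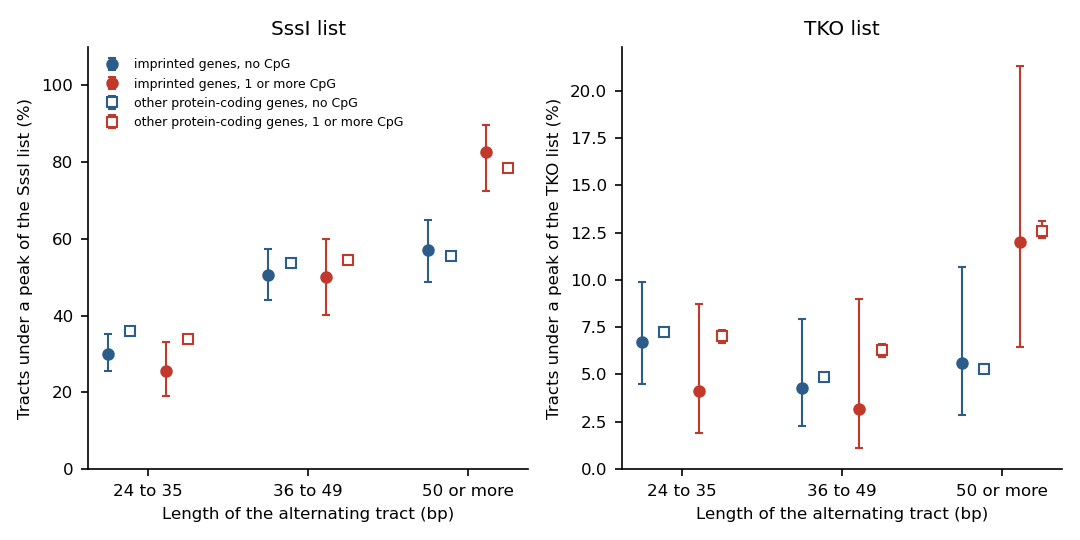
Percent of alternating tracts under a peak of the SssI list (left) and of the TKO list (right), by tract length and by the presence of a CpG, in windows of imprinted genes (filled) and of other protein-coding genes (open), with Wilson 95% intervals. In the SssI list the tracts of 50 bp or more with a CpG stand above those without one, 82.7% against 57.0% at imprinted genes. Below 50 bp the intervals of the imprinted genes overlap.

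Nearly all peaks at imprinted genes held an alternating tract. A tract of at least 12 bp was present in 369 of the 376 SssI peaks, or 98.1% (96.2 to 99.1), against 98.7% of the whole list. The median longest tract was 44.5 bp, against 46.0 bp in the whole list, and the median score was 108 in both. The peaks fell mostly in introns, 286 of 376 or 76.1% (71.5 to 80.1), with 13 over an exon of a listed gene, 35 upstream and 42 downstream of all listed genes they belonged to. The windows are mostly gene span: without the flanks, 299 of the peaks lay in 3801481 of the 4665136 bp. The SssI density was 7.87 per 100 kb without flanks and 8.06 with them, so the peaks were not denser inside the genes. The intron share of other genes is not given here.

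The 7 SssI peaks without such a tract lay at Kcnk9 and Trappc9, with 2 each, and at Igf2r, Impact and Peg3. Some of them were tandem repeats of another kind. The peak at chr15:72996650-72998151, in an intron of Trappc9, was 1502 bp long, and 92.4% of its bases equalled the base 32 positions on. Its commonest 32 bp word occurred 8 times. The Igf2r peak at chr17:12687942-12688264, in an intron, had 18 CpGs and a period of 24 bp with 69.6% identity. Its score was 109, near the median. The commonest words of 2 Trappc9 peaks and the central 300 bases of the Igf2r peak, chr17:12687953-12688252, are shown as repeats that are not plain CA or TG runs. The word of 19 bp comes from the SssI peak of the highest score at an imprinted gene, at chr15:72783117-72783750 in Trappc9. That peak scored 2209, rank 162, and held the word 12 times while its longest tract was 13 bp.
Trappc9, 32 bp word: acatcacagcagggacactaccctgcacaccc
Trappc9, 19 bp word: gtgtgtgcacttgctgagt
Igf2r peak, centre: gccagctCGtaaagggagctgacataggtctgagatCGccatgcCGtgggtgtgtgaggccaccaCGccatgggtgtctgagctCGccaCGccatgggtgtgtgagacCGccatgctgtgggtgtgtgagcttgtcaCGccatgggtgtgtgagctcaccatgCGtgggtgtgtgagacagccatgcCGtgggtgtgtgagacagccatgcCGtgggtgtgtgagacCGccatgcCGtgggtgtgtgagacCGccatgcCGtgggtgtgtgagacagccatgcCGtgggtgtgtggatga

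A looser measure than the exact tract is the percent of neighbouring bases that change between purine and pyrimidine. Its median was 59.9% over the 376 SssI peaks and 61.2% over the whole SssI list. Over the 29 TKO peaks it was 75.7%, and 74.2% over the whole TKO list. The TKO peaks were called narrower than their SssI partners in 28 of 29 cases, with median widths of 237 and 421 bp. Measured over the same list, the 29 SssI peaks that overlapped a TKO peak had a median of 66.0% and the other 347 a median of 59.6%, with ranges of 49.4 to 81.9% and 28.9 to 85.9%.

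The lists met at 29 of the 376 SssI peaks, 7.71% (5.42 to 10.9), where the whole SssI list had 8.23%. Each of the 29 TKO peaks had an SssI partner, as did 99.4% of the whole TKO list. The shared peaks were mostly those of high score. The highest SssI scores, all with a TKO partner, were 2209 at Trappc9, 2125 at Kcnk9, 2109 at Usp29, 1791 at Begain, and 1601 at both Slc22a3 and Usp29. Their median SssI score was 1270, against 96.0 for the unshared, and their lowest was 120. Of 23 SssI peaks with a score over 1000, 18 were in both lists. The 5 that were not lay at Rasgrf1, with 3, and at Ppp1r9a and Trappc9, with 1 each. The highest unshared score was 1331, in an intron of Trappc9. For the whole SssI list these medians and counts are not given here, so they mark no trait particular to imprinted genes.

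The number of CpGs rose with the score as well. Median scores were 93.0 for the 99 SssI peaks with no CpG, 96.0 for 168 peaks with 1 to 2, 139.5 for 74 peaks with 3 to 5, and 278 for 35 peaks with 6 or more. A TKO partner was found for 4 of the 99 peaks (4.04%, 1.58 to 9.93), 8 of the 168 (4.76%, 2.43 to 9.11), 10 of the 74 (13.5%, 7.51 to 23.1) and 7 of the 35. The whole SssI list rose in the same way, with a partner for 2.75%, 5.97%, 14.6% and 27.6% and median scores of 81.0, 102, 161 and 328. Peaks with no CpG made up 26.3% (22.1 to 31.0) of the SssI peaks at imprinted genes and 31.9% of the whole list. Of the 11 peaks with 10 or more CpGs, 3 were shared with the TKO list, at Meg3, Sgce and Zim1. The share of the whole SssI list at that CpG number is not given here.

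**Figure D4:**
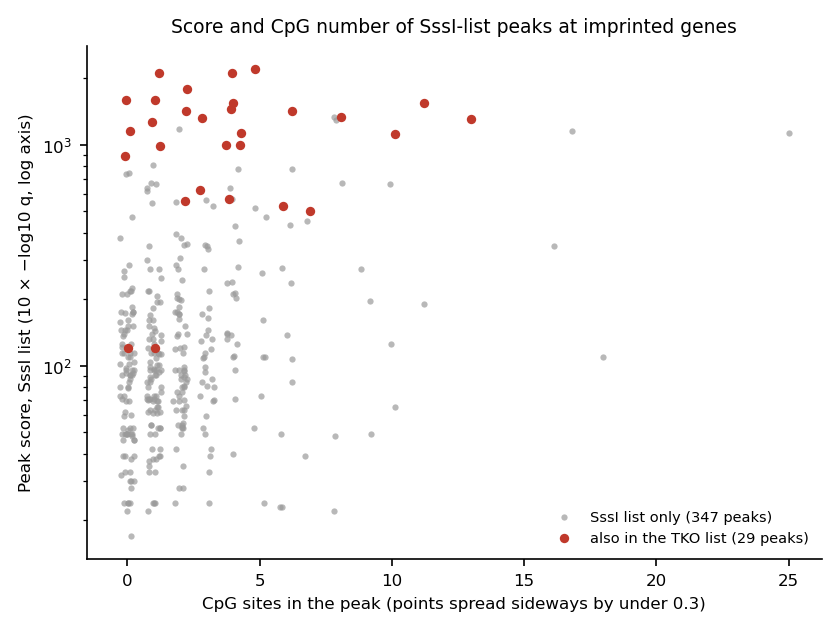
Score (log axis) against the number of CpG sites for the 376 SssI peaks at imprinted genes; red points also overlap a TKO peak. The 29 shared peaks lie mostly above 500, with between 0 and 13 CpGs, while the peaks with 16 or more CpGs were in the SssI list alone.

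The CpG-rich peaks of the SssI list that had no TKO partner included 1 at the start of Rasgrf1. It lay at chr9:89909314-89909635, centred at -0.433 kb from the outermost start, with 25 CpGs and a score of 1129. This was the highest number of CpGs of any SssI peak in the windows. The central 300 bases, chr9:89909325-89909624, show a TG repeat with CpGs inside it and more CpGs on both sides.
Rasgrf1 peak, centre: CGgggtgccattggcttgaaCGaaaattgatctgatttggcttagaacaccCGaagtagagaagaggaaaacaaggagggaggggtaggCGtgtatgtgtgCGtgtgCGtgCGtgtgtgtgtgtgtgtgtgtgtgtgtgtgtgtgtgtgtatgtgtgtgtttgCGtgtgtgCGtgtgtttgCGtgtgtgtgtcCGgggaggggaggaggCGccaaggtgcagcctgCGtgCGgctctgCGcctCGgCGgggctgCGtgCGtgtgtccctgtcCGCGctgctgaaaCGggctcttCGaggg

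The peak over the last exon of Ppp1r9a, chr6:5163877-5164199, in annotated UTR, had 17 CpGs and a score of 1159. A peak at chr7:128687408-128687630 over an annotated UTR of Inpp5f, an inositol phosphatase, had 16 CpGs and a score of 347. The other exonic peaks had 0 to 6 CpGs, except the Meg3 peak with 10. They lay at Mirg, with a score of 49, at coding exons of Slc22a3 (544) and Igf2r (145), at an exon of Slc22a18 that is coding or UTR by transcript (139), at UTRs of Zim1 (518) and Igf2 (194), at Peg3 in a UTR (37) and in sequence that is coding or UTR by transcript (33), and at 2 exonic places of Kcnq1ot1 (273 and 114). The Meg3 peak was the only exonic peak of the TKO list.

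The 29 TKO peaks were at 19 genes, with scores from 48 to 2804 and a median of 243, against 192 in the whole TKO list. Usp29 had 5 and Zim1 had 3. Commd1, Dio3, Kcnk9, Trappc9 and Slc22a3 had 2 each. Zrsr1, Begain, Dlk1, Meg3, Rian, Airn, Impact, Sfmbt2, Gnas, Sgce, Inpp5f and Rasgrf1 had 1 each. One peak lay in the windows of both Commd1, a regulator of copper and NF-kB, and Zrsr1, a splicing factor gene inside it. In all, 21 of the 29 lay in introns, or 72.4% (54.3 to 85.3), 6 were downstream, 1 was upstream and 1 was exonic. The TKO density was 0.579 per 100 kb without flanks and 0.622 with them, so these peaks were not denser inside the genes either.

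The 5 highest TKO scores were over 1000. After Airn with 2804 came a peak of 1993 bp in an intron of Kcnk9, chr15:72539658-72541650, with a score of 1730. It had 54 tracts, of which the longest was 56 bp, and 4 CpGs. The third was in an intron of Trappc9, chr15:72783196-72783695, with a score of 1588, over the 19 bp words shown above. The fourth was in an intron of Usp29, chr7:6832156-6832488, with a score of 1246 and a longest tract of 16 bp. The fifth was the exonic Meg3 peak, chr12:109565007-109565336, with a score of 1141. Thus 2 of these 5 had no tract over 16 bp.

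Scores between 200 and 1000 were found at Begain, a postsynaptic scaffold protein (957), at Zim1 (847 and 397), at Dio3, the deiodinase that inactivates thyroid hormone (599), at Trappc9 (500), at Usp29 (438), at Rian (417), at Sgce, a sarcoglycan (290), at Slc22a3 (263) and at Commd1 (243). The remaining scores ran from 48 at Inpp5f to 199 at Impact, a regulator of translation, where the longest tract of any TKO peak in the windows was found, 216 bp. Between them lay Gnas (164), Dlk1 (155), Sfmbt2 (152), Rasgrf1 (117), the other Dio3 peak (116), 3 more peaks of Usp29 (100, 82 and 82), Kcnk9 and Zim1 (91 each), the peak shared by Commd1 and Zrsr1 (88) and the other Slc22a3 peak (54). TKO peaks without a tract of 12 bp were 2, at Kcnk9 (score 91) and Usp29 (82). The Usp29 peak, chr7:6859790-6859956, is printed whole because it is made of short CA runs of which none reaches 12 bp.
Usp29 peak: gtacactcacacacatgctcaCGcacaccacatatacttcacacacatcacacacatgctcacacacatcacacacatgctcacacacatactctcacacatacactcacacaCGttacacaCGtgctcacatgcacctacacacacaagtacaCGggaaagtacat

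The distance to the DMRs was measured from 18 anchors. Of these, 15 were at or next to promoters that are methylated on the maternal allele, with that of Impact in an intron. The other 3 were at intergenic control regions methylated on the paternal allele. The anchors were set from textbook placement relative to GENCODE start sites and are approximate. Distances run from the anchor to the nearest edge of a peak. An SssI peak lay within 10 kb of 15 of the 18 anchors. The same held for 68.1% of the start sites of other protein-coding genes and for 70.6% of those with at least 30 CpGs within 500 bp. The median distance was 5.25 kb from the anchors, with quartiles of 3.99 and 8.68 kb, and 5.80 kb from other start sites, with quartiles of 2.42 and 12.6 kb. No anchor lay under a peak. An anchor is a single point and the extent of the DMRs was not used, so whether a peak lies inside a DMR was not tested. An SssI peak lay within 2 kb of 2 anchors, or 11.1%, against 20.7% of start sites and 19.4% of the CpG-rich ones. A TKO peak lay within 10 kb of 1 anchor, that of Zrsr1 at 9.21 kb, against 10.3% of start sites and 10.6% of the CpG-rich ones. The median TKO distance was 65.2 kb, against 67.9 kb.

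**Figure D5:**
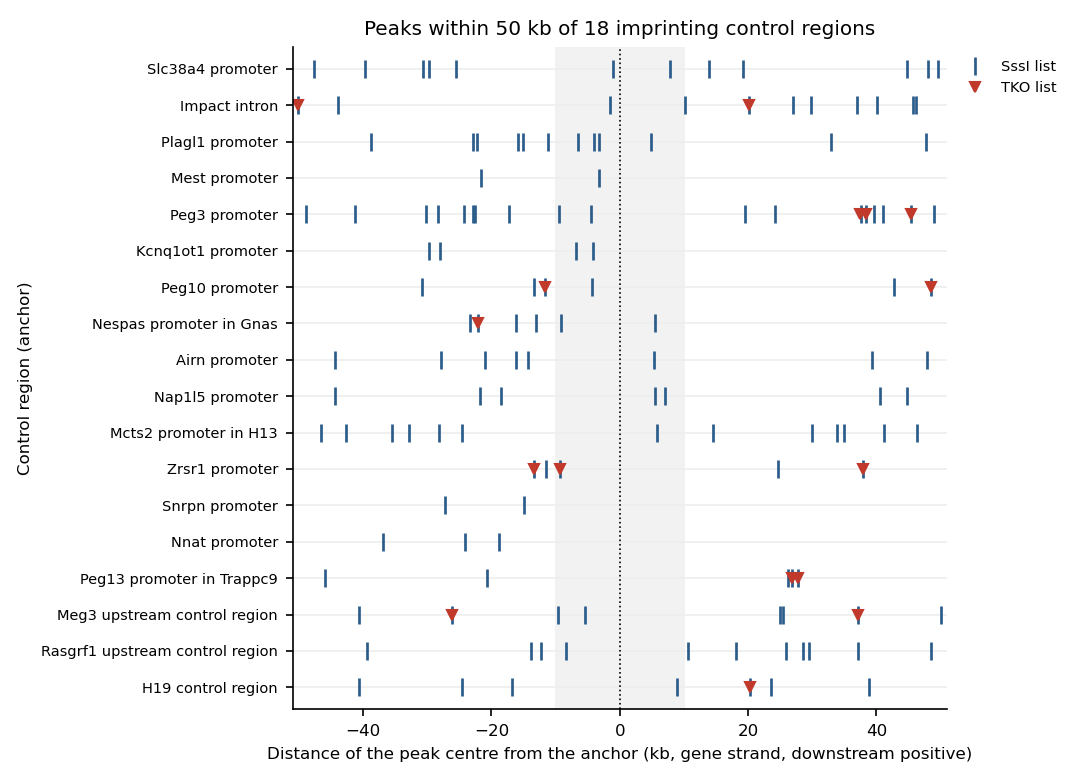
Centres of SssI peaks (blue ticks) and TKO peaks (red triangles) within 50 kb of the 18 anchors, by distance in kb along the gene's strand; grey marks 10 kb on either side, and the last 3 rows are paternally methylated. No peak covers an anchor, and the nearest peak edges are at Slc38a4 (0.953 kb) and Impact (1.35 kb).

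The nearest peak of all lay 0.953 kb upstream of the Slc38a4 start, the promoter of an amino acid transporter gene. It had a score of 46, no CpG and a longest tract of 47 bp. The peak is shown whole, chr15:97056909-97057104.
Slc38a4 peak: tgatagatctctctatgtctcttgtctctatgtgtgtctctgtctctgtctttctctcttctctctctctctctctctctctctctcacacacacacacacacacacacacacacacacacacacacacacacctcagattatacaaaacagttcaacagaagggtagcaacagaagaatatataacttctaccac

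At Impact the nearest SssI peak lay 1.35 kb upstream of the anchor, in an intron, and had 10 CpGs, no tract of 12 bp and a score of 126. At Plagl1, Mest, Peg3, Kcnq1ot1 and Peg10 the nearest SssI peaks lay 3.09, 3.19, 3.96, 4.06 and 4.19 kb away, all upstream, with scores of 30, 163, 368, 89 and 69. At Nespas in Gnas, Airn, Nap1l5 and Mcts2 in H13 they lay 5.21, 5.23, 5.42 and 5.62 kb away, all downstream, with scores of 775, 84, 171 and 87. At Zrsr1 the distance was 9.07 kb. The Snrpn, Nnat and Peg13 promoters had no SssI peak within 10 kb, and their nearest peaks were 14.8, 18.7 and 20.6 kb away. At the paternally methylated regions the distances were 5.26 kb for Meg3, 8.26 kb for Rasgrf1 and 8.82 kb for H19, with scores of 240, 889 and 240. For TKO peaks the distances ran from 9.21 kb at Zrsr1 to 494 kb at Snrpn.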

How the data were processed

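Peaks of MBP-ZBTB43 over MBP on SssI and TKO DNA were taken from the deposited lists. The authors aligned reads to mm10 with BWA 0.7.17, pooled duplicates and called peaks with MACS2 2.2.7.1 at a q-value under 0.05. The deposited score is 10 times the −log10 q-value and is not comparable between lists, and no counts or depth are given. In the numbering of the peaks, 3891 SssI and 416 TKO numbers have no row, and such peaks were not analysed here.

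Windows, overlaps of at least 1 bp, tracts of at least 12 bp or 24 bp, and CpGs were computed on GENCODE M21 and GRCm38 with Python 3.11.15, numpy 2.4.6, pandas 2.3.3 and scipy 1.17.1, and the counting was tested on simulated data. Intervals are Wilson 95% for shares and exact Poisson for densities. No test was made, since duplicates were pooled. Samples were grouped by their titles. DMR coordinates were not used here: anchors are the annotated start with the most CpGs within 500 bp (for Nespas the outermost start), or points 3, 13 and 30 kb upstream of the outermost starts of H19, Meg3 and Rasgrf1. A period is the shift of up to 150 bp with the highest share of equal bases.

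The genes and lists were chosen with earlier results of these data known. Named are the domain control genes, the 10 genes with the most SssI peaks and the 10 densest, every gene with no SssI peak, with a TKO peak, or with a peak within 2 kb of an anchor, and every TKO peak, the 5 SssI peaks of highest score, the peaks nearest to anchors and the exonic peaks. The Rasgrf1, Plagl1 and Sfmbt2 tract shares, the words and the printed peaks were chosen after their values were seen. Alternatives covered the q-value, merging of peaks, the flank, the overlap, the transcript, the comparison genes, the distance and the tract length. The sequences of 2 peaks are not reported here.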

Additional observations from a re-analysis of the deposited data

How the results depend on the processing

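Of 61 alternative values of 7 results, 57 stayed within the counting interval of the value above, or within 1.5 times of it for counts of genes and anchors. The SssI density was 6.69 per 100 kb at a q-value under 1e-05. The density of other genes at that threshold is not given here. The genes with a TKO peak were 12 of 53 without the flanks of 10 kb, and the share of other genes at that setting is not given here. The anchors with an SssI peak were 2 within 2 kb. The share of SssI peaks with a tract was 88.8% at a minimum of 24 bp. The genes above the median of similar length numbered between 21, without flanks, and 30 in all alternatives. These included 2 chosen after seeing the data: autosomes only, and genes of similar tract density. With flanks 30 of 53 genes were above it, and without flanks 21 of 53, a minority. The share of other genes above it without flanks is not given here. No paired analysis was possible because the duplicates were pooled before peak calling. The lower SssI density and the fewer TKO genes came with settings that keep fewer peaks or a smaller window. Whether other genes fall as much at these settings was not tested. With the depth unknown, a gene without a peak cannot be called unbound.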
